A study of Mus musculus with 10 samples.

Results

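The 10 genes described here, Dusp4, Dusp5, Dusp6, Spry1, Spry2, Spry4, Ier3, Etv4, Etv5 and Egr1, are transcribed in answer to the kinase ERK, and most of their products feed back on it. They were taken by symbol from deposited tables that hold 22867 gene symbols, and each had 1 row per table. RNA was sequenced from 10 libraries of cultured mouse cells, all of strain 129SV, 4 of them epiblast-like cells (EpiLCs) and 6 embryonic stem cells (ESCs). EpiLCs came from Otx2-/- cells (1 library), from E14 cells (1) and from R1 cells (1 with activin A at 20 ng/ml and 1 without), after 48 h in serum-free N2B27 medium with bFGF and serum replacement. The labels name no inhibitor for that medium, and they leave unsaid if activin A was given to the EpiLCs of E14 and Otx2-/-. ESCs came from Otx2-/- cells carrying a tetON Otx2 transgene (1 library with doxycycline, dox, and 1 without), from Otx2-/- cells (1), from E14 cells (1) and from R1 cells (2). All ESCs grew in N2B27 with LIF, 0.8 µM PD0325901, which inhibits MEK, and 3.3 µM CHIR99021, which inhibits GSK3. The sources used here do not give the deleted stretch of Otx2, the number of clones behind the Otx2-/- and tetON cells, or the dose and duration of dox. Both tetON libraries carry the Otx2 deletion.

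FGF binding to its receptors activates Ras, which recruits Raf, which activates MEK, which activates ERK, and inhibitors of MEK and GSK3 given with LIF are the usual means of holding mouse ESCs in the naive state. ERK signalling is in turn what lets these cells move towards the state of the post-implantation epiblast. ERK switches on transcription factors such as Egr1 and the PEA3-type ETS factors Etv4 and Etv5, the early response gene Ier3, and a set of inhibitors. Among the inhibitors, the Dusp proteins are phosphatases that remove the activating phosphates from ERK, Dusp6 in the cytoplasm and Dusp4 and Dusp5 in the nucleus, and the Sprouty proteins (Spry1, Spry2, Spry4) act between the receptor and Raf.

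RefSeq start sites of GRCm38.p6 were matched for 6 of the 10 genes (Dusp5, Dusp6, Spry1, Spry2, Ier3 and Etv5), and the 300 bases from 250 before to 50 after each start were searched on both strands for 7 motifs. The searched letters were the ETS core CCGGAA (in 14.9% of all 32851 promoters of the table), the AP-1 motif TGANTCA (7.808%), the cyclic AMP response element TGACGTCA (1.79%), the Capicua motifs TGAATGAA (1.303%) and TGAATGGA (1.205%), the Otx2 motif TAATCC (7.062%) and the CArG box (1.629%), where serum response factor binds. Of the 6 genes, Dusp5 held the CArG box and Spry2 the ETS core, and none of the other searched letters matched. The Capicua motif was searched in the forms TGAATGAA and TGAATGGA alone. Other forms of it were not searched, so the result does not show that these promoters lack Capicua sites. Both promoters are shown because these genes lay on opposite sides between the states, Dusp5 being higher and Spry2 lower in EpiLC, and because each holds a motif of ERK-driven factors, printed in capitals.
Dusp5: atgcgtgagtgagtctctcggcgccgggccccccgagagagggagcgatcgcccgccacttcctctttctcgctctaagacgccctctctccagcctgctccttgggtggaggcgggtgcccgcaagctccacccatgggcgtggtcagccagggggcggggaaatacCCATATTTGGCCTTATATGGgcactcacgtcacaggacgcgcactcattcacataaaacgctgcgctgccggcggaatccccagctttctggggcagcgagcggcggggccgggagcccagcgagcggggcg
Spry2: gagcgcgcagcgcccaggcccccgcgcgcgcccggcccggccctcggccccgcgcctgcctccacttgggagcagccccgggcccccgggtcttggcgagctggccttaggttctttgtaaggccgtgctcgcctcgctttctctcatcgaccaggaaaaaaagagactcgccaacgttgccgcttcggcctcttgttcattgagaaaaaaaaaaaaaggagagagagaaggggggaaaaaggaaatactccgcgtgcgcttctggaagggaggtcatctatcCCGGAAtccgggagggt
The Dusp5 window is chr19:53528895-53529194 on the plus strand, and its CArG boxes, CCATATTTGG at 82 bases and CCTTATATGG at 72 bases before the start site, follow each other with no base between. The Spry2 window is chr14:105896770-105897069 on the minus strand, and its ETS core begins 33 bases after the start site. A match of letters is a description and no evidence of binding.

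In the deposited coordinates (mouse build mm9, whole gene spans counted from 1), Dusp4 lies on chromosome 8 at 35870664 to 35882948, Dusp5 on chromosome 19 at 53603808 to 53615812 and Dusp6 on chromosome 10 at 98725865 to 98730123. Spry1 lies on chromosome 3 at 37538872 to 37543521 and Spry2 on chromosome 14 at 106291164 to 106296036. Ier3 lies on chromosome 17 at 35958658 to 35959856, Etv4 on chromosome 11 at 101631056 to 101646624 and Etv5 on chromosome 16 at 22381386 to 22439643, while Spry4 and Egr1 are on chromosome 18. No other entry of the tables overlapped any of the 10 spans. Values are FPKM, fragments scaled to transcript length and to all mapped fragments of the library, so levels can be set side by side between genes.

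As a check of the labels, Otx2 had 15.8 FPKM in Otx2-/- EpiLC, against 39.9 FPKM in E14 EpiLC, 151 FPKM in R1 EpiLC with activin A and 107 FPKM without it. It had 1059 FPKM in the tetON library with dox and 45.8 FPKM in the one without. Otx2-/- ESC had 7.85 FPKM, against 3.96 FPKM in E14 ESC and 5.72 and 9.09 FPKM in R1 ESC replicates 1 and 2, so the ESC values do not show the deletion. A gene-level value does not show whether reads fall in the deleted stretch, so the reads left in Otx2-/- cells cannot be placed. Summed over the 9 of 10 naive markers that matched a symbol, EpiLC libraries had 87.4 to 130.2 FPKM and ESC libraries 529 to 1410 FPKM, the lowest ESC sum being that of the dox library. Sums of 7 primitive endoderm markers (1.08 to 2.12 FPKM in EpiLC, 1.55 to 5.72 in ESC), 7 fibroblast markers (5.24 to 9.66 in EpiLC, 2.50 to 4.53 in ESC) and 6 mesoderm markers (5.02 to 9.73 in EpiLC, 4.92 to 13.1 in ESC) were low. Sums of 7 trophoblast markers were higher, at 13.1 to 35.6 FPKM in EpiLC and 21.4 to 46.6 FPKM in ESC, with the highest in the dox library. Most of each sum came from Tfap2c (2.14 to 18.9 FPKM) and Krt8 (3.40 to 29.7 FPKM). Elf5 had at most 0.189 FPKM, and Cdx2 at most 2.55 FPKM, in R1 ESC replicate 1. Depth, approximated from the values, ran between about 6240000 fragments (E14 EpiLC) and 21000000 fragments (Otx2-/- ESC).

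Of the 10 genes, 5 had higher FPKM in every EpiLC library than in any ESC library. These were the 3 phosphatase genes, Spry1 and Ier3. Spry2 was lower in every EpiLC library than in any ESC library. Spry4, both ETS factor genes and Egr1 overlapped between the states. Over all 12356 genes averaging at least 1 FPKM, 11.2% were wholly higher and 14.9% wholly lower in EpiLC. Groups of 4 and 6 libraries that do not overlap give the smallest p of a two-sided exact permutation test, 0.00952 over 210 ways of choosing 4, by construction, so it adds nothing to the separation itself. RNA of whole cultures was measured, so fewer cells expressing a gene and less RNA per cell cannot be told apart. The states also differ in inhibitors, LIF, bFGF and time in culture at once, and the part of each cannot be told apart.

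**Figure D1:**
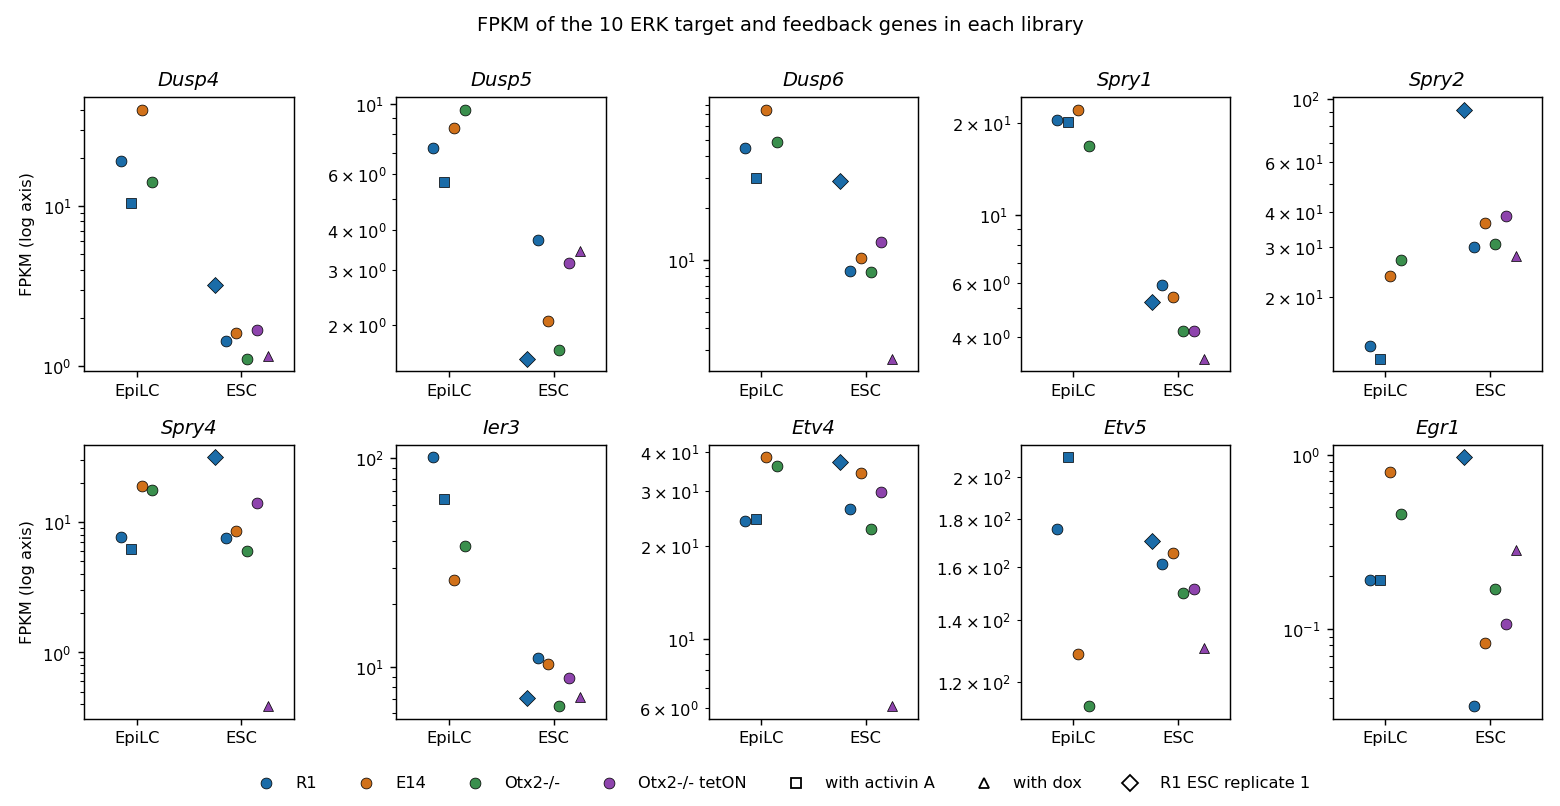
Each panel shows 1 gene, with its FPKM in each of the 10 libraries on a log axis, EpiLC on the left and ESC on the right. Colours mark the line (R1, E14, Otx2-/-, Otx2-/- with the tetON transgene), squares the library with activin A, triangles the library with dox and diamonds R1 ESC replicate 1. Dusp4, Dusp5, Dusp6, Spry1 and Ier3 show no overlap and are higher in EpiLC, Spry2 shows none and is lower, and the dox library is far below the rest for Spry4 (0.388 FPKM), Dusp6 (2.66 FPKM) and Etv4 (6.10 FPKM).

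Dusp4, which encodes a nuclear phosphatase of ERK and other MAP kinases, had the widest step between the states. It had 14.2 FPKM in Otx2-/- EpiLC, 40.0 in E14 EpiLC, 10.5 in R1 EpiLC with activin A and 19.0 in R1 EpiLC without. ESC libraries had 1.16 FPKM in tetON cells with dox, 1.68 without dox, 1.11 in Otx2-/-, 1.60 in E14, and 3.19 and 1.43 in R1 replicates 1 and 2. E14 EpiLC stood above the other EpiLC libraries, and even the lowest EpiLC value was more than the highest ESC value. Over R1 and E14, Dusp4 averaged 23.1 ± 15.2 FPKM in EpiLC and 2.07 ± 0.972 FPKM in ESC (SD, n = 3 each), a log2 difference of (FPKM + 1) of 2.82 (SE 0.46; limma, adjusted p = 0.0153). The call over R1 and E14 was lost without R1 EpiLC without activin A (limma, adjusted p = 0.0775), E14 ESC (0.0565) or E14 EpiLC (0.0611). Over all 10 libraries, with the line as a term, the difference was 2.83 (SE 0.35; limma, adjusted p = 0.00200). In this fit, for every gene, the tetON ESC pair adds to the spread and not to the difference, which rests on R1, E14 and Otx2-/-.

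Dusp5, whose product is a nuclear phosphatase specific for ERK, was expressed at a lower level. It had 9.58 FPKM in Otx2-/- EpiLC, 8.41 in E14 EpiLC, 5.65 in R1 EpiLC with activin A and 7.24 in R1 EpiLC without. In ESC it had 3.44 FPKM in tetON cells with dox, 3.14 without, 1.67 in Otx2-/-, 2.07 in E14, and 1.57 and 3.73 in R1 replicates 1 and 2. The EpiLC values lay close together, and R1 ESC replicate 1 was the lowest of all libraries. The difference was 1.26 (SE 0.28; limma, adjusted p = 0.0344) over R1 and E14, with 7.10 ± 1.38 FPKM in EpiLC and 2.46 ± 1.13 FPKM in ESC (SD, n = 3 each), and 1.44 (SE 0.24; limma, adjusted p = 0.00542) over the 10 libraries. The 6-library call was lost without R1 EpiLC with activin A (limma, adjusted p = 0.0938), R1 EpiLC without it (0.149), E14 ESC (0.141) or E14 EpiLC (0.148), whereas the 10-library call held without each of them.

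Dusp6, the cytoplasmic ERK phosphatase and a widely used readout of FGF signalling, had 48.6 FPKM in Otx2-/- EpiLC, 74.7 in E14 EpiLC, 30.1 in R1 EpiLC with activin A and 44.5 in R1 EpiLC without. In ESC it had 2.66 FPKM in tetON cells with dox, 12.7 without, 8.53 in Otx2-/-, 10.3 in E14, and 28.6 and 8.66 in R1 replicates 1 and 2. The groups came close to each other only through R1 ESC replicate 1, which nearly reached the R1 EpiLC library with activin A. The difference over R1 and E14 was 1.68 (SE 0.54) with 49.8 ± 22.8 FPKM in EpiLC and 15.8 ± 11.0 FPKM in ESC (SD, n = 3 each), and it did not pass (limma, adjusted p = 0.0849). Without R1 ESC replicate 1 it was 2.30 (limma, adjusted p = 0.00700). Over the 10 libraries it passed at 1.86 (SE 0.54; limma, adjusted p = 0.0396), and the call was lost on leaving out R1 ESC replicate 2 (adjusted p = 0.0975), E14 ESC (0.144), or R1 EpiLC without activin A (0.0950), R1 EpiLC with activin A (0.0554) or E14 EpiLC (0.145).

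Spry1 had the steadiest step of the 10 genes. It had 16.8 FPKM in Otx2-/- EpiLC, 22.1 in E14 EpiLC, 20.0 in R1 EpiLC with activin A and 20.5 in R1 EpiLC without, against 3.41 FPKM in tetON ESC with dox, 4.19 without, 4.19 in Otx2-/- ESC, 5.43 in E14 ESC, and 5.20 and 5.91 in R1 ESC replicates 1 and 2. Both groups were tight, and the lines gave nearly the same step, with log2 differences of 1.78 in Otx2-/-, 1.84 in E14 and 1.70 in R1. Averages over R1 and E14 were 20.8 ± 1.07 FPKM in EpiLC and 5.52 ± 0.363 FPKM in ESC (SD, n = 3 each). The difference was 1.75 (SE 0.13; limma, adjusted p = 0.00256), and it passed without each of the 6 libraries in turn, the highest adjusted p from limma being 0.0294. Over the 10 libraries it was 1.75 (SE 0.11; limma, adjusted p = 0.000213).

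Spry2, its close relative, had its lowest values in EpiLC. It had 27.1 FPKM in Otx2-/- EpiLC, 23.7 in E14 EpiLC, 12.1 in R1 EpiLC with activin A and 13.4 in R1 EpiLC without, against 28.0 FPKM in tetON ESC with dox, 38.7 without, 30.9 in Otx2-/- ESC, 36.4 in E14 ESC, and 91.7 and 29.9 in R1 ESC replicates 1 and 2. The gap between the groups was narrow, from 27.1 to 28.0 FPKM, and R1 ESC replicate 1 was far above the other ESC libraries. The difference was -1.51 (SE 0.49; limma, adjusted p = 0.0881) over R1 and E14, with 16.4 ± 6.34 FPKM in EpiLC and 52.7 ± 34.0 FPKM in ESC (SD, n = 3 each), and -1.18 (SE 0.43; limma, adjusted p = 0.0795) over 10 libraries, so neither passed. Without R1 ESC replicate 1 both passed, at -0.92 (limma, adjusted p = 0.0176) and -0.70 (limma, adjusted p = 0.0448), although the differences were smaller. By line the log2 difference was -0.18 in Otx2-/-, -0.60 in E14 and -1.96 in R1, or -1.17 in R1 with ESC replicate 2 alone.

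Spry4 showed no common step. It had 17.7 FPKM in Otx2-/- EpiLC, 18.8 in E14 EpiLC, 6.24 in R1 EpiLC with activin A and 7.73 in R1 EpiLC without, against 0.388 FPKM in tetON ESC with dox, 13.9 without, 6.05 in Otx2-/- ESC, 8.57 in E14 ESC, and 31.5 and 7.60 in R1 ESC replicates 1 and 2. Its highest value over the 10 libraries was 81.1 times its lowest, the widest range of the 10 genes. Within lines it differed by 1.41 in Otx2-/- and 1.05 in E14, against -1.07 in R1, where the value was -0.11 with ESC replicate 2 alone. The difference over R1 and E14 was -0.36 (SE 0.65; limma, adjusted p = 0.711), and without R1 ESC replicate 1 it was 0.39 (limma, adjusted p = 0.364). Over the 10 libraries it was 0.08 (SE 0.84; limma, adjusted p = 0.957).

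Ier3, an early response gene linked to cell survival, had the second highest mean of the 10 genes in EpiLC of R1 and E14, although in E14 EpiLC Dusp6, Dusp4 and Etv4 were above it as well as Etv5. It had 38.0 FPKM in Otx2-/- EpiLC, 26.1 in E14 EpiLC, 63.8 in R1 EpiLC with activin A and 101 in R1 EpiLC without. In ESC it had 7.18 FPKM in tetON cells with dox, 8.87 without, 6.50 in Otx2-/-, 10.4 in E14, and 7.09 and 11.0 in R1 replicates 1 and 2. The ESC values were close together, whereas among EpiLC the R1 libraries stood above E14 and Otx2-/-. Averages over R1 and E14 were 63.8 ± 37.7 FPKM in EpiLC and 9.48 ± 2.10 FPKM in ESC (SD, n = 3 each), with a difference of 2.45 (SE 0.44; limma, adjusted p = 0.0186), and of 2.43 (SE 0.33; limma, adjusted p = 0.00257) over 10 libraries. The 6-library call was lost without R1 ESC replicate 2 (limma, adjusted p = 0.0565), R1 EpiLC without activin A (0.0728) or R1 EpiLC with it (0.0764). Its order of lines was the reverse of that of Dusp4, with log2 differences of 2.38 in Otx2-/-, 1.25 in E14 and 3.05 in R1.

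Neither ETS factor gene passed a test between the states. Etv5 was the most abundant of the 10 genes in every library and ranked at a percentile of 96.8 to 98.5 among all symbols. It had 113 FPKM in Otx2-/- EpiLC, 129 in E14 EpiLC, 210.2 in R1 EpiLC with activin A and 176 in R1 EpiLC without, against 131 FPKM in tetON ESC with dox, 151 without, 150.0 in Otx2-/- ESC, 165 in E14 ESC, and 170.4 and 161 in R1 ESC replicates 1 and 2. Its highest value was 1.86 times its lowest, the narrowest range of the 10 genes, and the difference over R1 and E14 was 0.02 (SE 0.18; limma, adjusted p = 0.941). Etv4 averaged 29.0 ± 8.25 FPKM in EpiLC and 32.6 ± 5.66 FPKM in ESC of R1 and E14 (SD, n = 3 each), a difference of -0.18 (SE 0.20; limma, adjusted p = 0.526). Its 4 EpiLC values ran from 24.1 to 38.5 FPKM, and of its ESC values only that with dox, 6.10 FPKM, lay outside 22.6 to 37.2 FPKM. A test that did not pass does not show that the levels are equal.

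Egr1, the zinc finger factor that is often the first gene to answer ERK, was near the floor of the assay. It had 0.453 FPKM in Otx2-/- EpiLC, 0.791 in E14 EpiLC and 0.190 in either R1 EpiLC library, against 0.283 FPKM in tetON ESC with dox, 0.106 without, 0.169 in Otx2-/- ESC, 0.0828 in E14 ESC, and 0.967 and 0.0358 in R1 ESC replicates 1 and 2. It was the lowest of the 10 genes in every library, R1 ESC replicate 1 was the highest of its values, and the states overlapped (exact permutation test, two-sided, p = 0.429). From annotated transcript lengths and approximate depth, between about 3.27 and 49.8 fragments lay behind these values, so the differences rest on few reads. Its mean was under 1 FPKM, and it was therefore not in the fits.

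Counted with limma over R1 and E14, 4 of the 9 tested genes rose in EpiLC (Dusp4, Dusp5, Spry1 and Ier3) and 0 fell, where 9.73% of all 12244 genes tested rose and 10.6% fell. Their median difference was 1.26, against -0.09 for all genes. Over the 10 libraries 5 of 9 rose, Dusp6 being the fifth, and 0 fell, where 12.5% of 12356 genes rose and 15.7% fell, with a median difference of 1.44, against -0.08 for all genes. Spry2 was the gene below 0 with an unadjusted p under 0.05 in either fit (limma). The 6-library calls depended on single libraries. Spry1 alone passed without R1 EpiLC without activin A, Spry1 and Dusp4 without R1 EpiLC with activin A, and Spry1 and Ier3 without either E14 library. Without R1 ESC replicate 2, Dusp4, Dusp5 and Spry1 passed, and without replicate 1 the 5 genes rose and Spry2 fell.

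**Figure D2:**
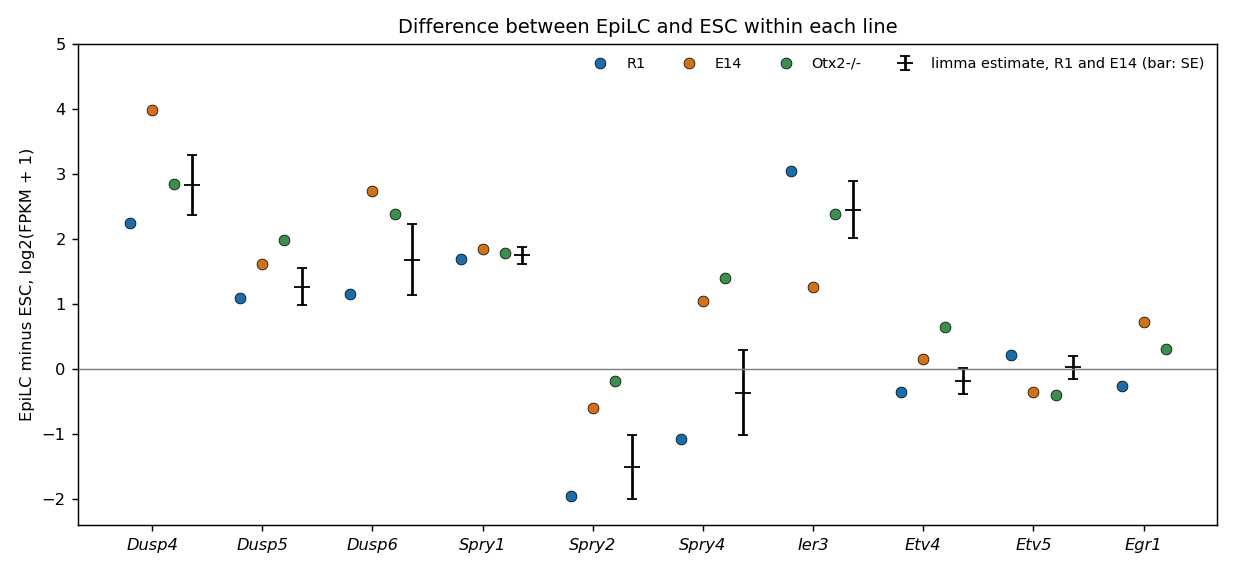
The vertical axis gives the difference EpiLC minus ESC in log2(FPKM + 1) within R1 (mean of 2 libraries a state), E14 and Otx2-/- (1 library a state), and the bar is the limma estimate over R1 and E14 with its SE. All lines are above 0 for Dusp4, Dusp5, Dusp6, Spry1 and Ier3 and below 0 for Spry2, while Spry4, Etv4, Etv5 and Egr1 have R1 on one side of 0 and E14 and Otx2-/- on the other.

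The lines were then compared. The E14 step minus the R1 step, in log2 units, was 1.73 (SE 0.73) for Dusp4, 1.59 (SE 1.06) for Dusp6, 2.12 (SE 1.20) for Spry4 and -1.79 (SE 0.59) for Ier3. Tested as an interaction, 0 of the 9 genes passed (limma, adjusted p = 0.914 for these 4 genes), where 0.327% of all genes did in either direction, and Ier3 was the gene with an unadjusted p under 0.05. The R1 value of Dusp6, 1.15, became 1.96 with ESC replicate 2 alone, closer to the 2.38 of Otx2-/- and the 2.74 of E14.

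In Otx2-/- cells the direction of the 6 separated genes is fixed by how they were picked, so their sizes are given as a description. The log2 difference between Otx2-/- EpiLC and Otx2-/- ESC, 1 library each, was 2.85 (SE 0.84) for Dusp4, 1.99 (SE 0.46) for Dusp5, 2.38 (SE 0.89) for Dusp6 and 2.38 (SE 0.84) for Ier3, with limma adjusted p-values of 0.143, 0.0809, 0.228 and 0.204. In that fit, where the lone libraries are taken to vary like the others, Spry1 was the one gene of 9 that rose (1.78, SE 0.20; limma, adjusted p = 0.0117), where 1.73% of all genes rose and 1.73% fell. Its call was lost without R1 EpiLC without activin A (limma, adjusted p = 0.0544).

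Set against EpiLC of R1 and E14, Otx2-/- EpiLC differed most for Spry4 (0.79, SE 0.88), Spry2 (0.75, SE 0.66) and Etv5 (-0.57, SE 0.27). None of the 9 genes passed (limma, lowest adjusted p = 0.960), 0 had an unadjusted p under 0.05, and 0.163% of all genes passed in either direction. Set against the mean of ESC of R1 and E14, Otx2-/- ESC was lower for all 9 genes, by log2 differences between -0.14 for Etv5 and -0.98 for Spry4, where the median of all genes was -0.03. Library by library it was above R1 ESC replicate 2 for Spry2 (30.9 against 29.9 FPKM) and above R1 ESC replicate 1 for Dusp5 (1.67 against 1.57 FPKM). For the rest of the 9 genes it was below each ESC library of R1 and E14. The share of all genes for which this held was not counted, so it does not set these genes apart. Again 0 of 9 passed (limma, adjusted p = 1 each), 0 had an unadjusted p under 0.05, and 0.139% of all genes passed. The difference in the EpiLC step between Otx2-/- and the other lines was largest for Spry4 (1.77, SE 1.24) and Spry2 (1.32, SE 0.93), and 0 of 9 genes passed (limma, adjusted p = 0.997 for both), with 0 at an unadjusted p under 0.05, where 0.277% of all genes did. R1 ESC replicate 1, high for Spry4 (31.5 FPKM) and Spry2 (91.7 FPKM), adds to the differences in step of these 2 genes. Without that library the median difference in step over the 9 genes was 0.20, against 0.70 with it. With 1 Otx2-/- library a state, SEs in the comparisons of levels ran from 0.16 (Spry1) to 0.88 (Spry4), so a miss does not show equal levels.

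Forced expression of Otx2 under MEK inhibition was accompanied by low values of 3 genes. Spry4 had 0.388 FPKM with dox, against 13.9 FPKM without (log2 ratio of FPKM + 1, -3.42). Dusp6 had 2.66 FPKM with dox, against 12.7 FPKM without (-1.91), and Etv4 had 6.10 FPKM with dox, against 29.7 FPKM without (-2.11). The plain ratio of FPKM without dox over with dox was 35.8 for Spry4, 4.78 for Dusp6 and 4.87 for Etv4. By the size rule for single pairs, a log2 ratio of at least 1 and 5 FPKM in one of the pair, these 3 were lower and 0 higher, where 5.71% of the 9304 genes at that level were lower and 6.42% higher. There was 1 library each, so no replicate check and no p-value.

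The other 7 genes were within 0.45 of no change on the log2 scale. Spry2 had 28.0 FPKM with dox and 38.7 without (-0.45), Etv5 131 and 151 (-0.21), Ier3 7.18 and 8.87 (-0.27), and Spry1 3.41 and 4.19 (-0.23). Dusp4 had 1.16 FPKM with dox and 1.68 without (-0.31), Dusp5 3.44 and 3.14 (0.10), and Egr1 0.283 and 0.106 (0.21). Of the 3 phosphatase and 3 Sprouty genes among the 10, Dusp6 and Spry4 passed the fold in this pair. Set against the median of the 5 other ESC libraries, a comparison chosen after seeing the data, the same 3 genes passed, with -2.79 for Spry4, -1.63 for Dusp6 and -2.11 for Etv4. The dox library lay below all 5 other ESC libraries for 6 of the 9 genes averaging at least 1 FPKM, or 66.7%, where 32.8% of 12114 genes did, and above them for 0 of 9, where 27.7% did. About 17.2 fragments lay behind the Spry4 value with dox.

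Other values moved in the dox library as well. Of 9 naive markers 7 were lower and 2 higher, with a sum of 529 FPKM with dox and 1228 FPKM without, and a median sum of 1268 FPKM over ESC libraries. Klf4, picked after its values were seen, had 22.8 FPKM with dox and 73.2 without, whereas Tfcp2l1 had 148 FPKM with dox and 126 without. Of 6 epiblast markers, Otx2 left out, 5 were higher and 1 lower, with a sum of 219 FPKM with dox and 67.2 without. Fgf5 among them had 3.63 FPKM with dox and 0.373 without. Of 7 trophoblast markers 3 were higher and 4 lower, the sum being 46.6 FPKM with dox and 28.5 without, with Krt8 at 29.7 FPKM with dox and 8.87 without, and Cdx2 listed at 0 with dox. Of 7 primitive endoderm markers 5 were higher and 2 lower, with a sum of 5.72 FPKM with dox and 2.47 without, and Gata4 at 3.08 FPKM with dox and 1.00 without. The part of these in the low values of Spry4, Dusp6 and Etv4 was not tested. Of the other feedback inhibitors 3 were higher and 2 lower among 11 at the level of the rule. The higher ones were Dusp2, a nuclear MAP kinase phosphatase (15.3 FPKM with dox, 0.0731 without; log2 ratio 3.92), Dusp14, a further phosphatase of that family (35.5 with dox, 5.49 without; 2.49), and Pea15a, which binds ERK in the cytoplasm (18.8 with dox, 7.07 without; 1.29). The lower ones were Dusp1, also a nuclear MAP kinase phosphatase (6.74 FPKM with dox, 21.3 without; -1.52), and Dusp16 (7.82 with dox, 16.7 without; -1.01). Dusp2, Dusp14 and Dusp16 were named after their values were seen. Of the immediate early and other ERK-linked genes 6 of 15 were lower and 1 higher, among them Hbegf, an EGF receptor ligand (2.65 FPKM with dox, 10.3 without). The dox and the 2-state comparisons share ESC libraries, so their values are given side by side and no overlap is drawn: Dusp6 was higher in EpiLC and lower with dox, whereas Dusp4, Dusp5, Spry1 and Ier3 were higher in EpiLC and stayed under the fold with dox.

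**Figure D3:**
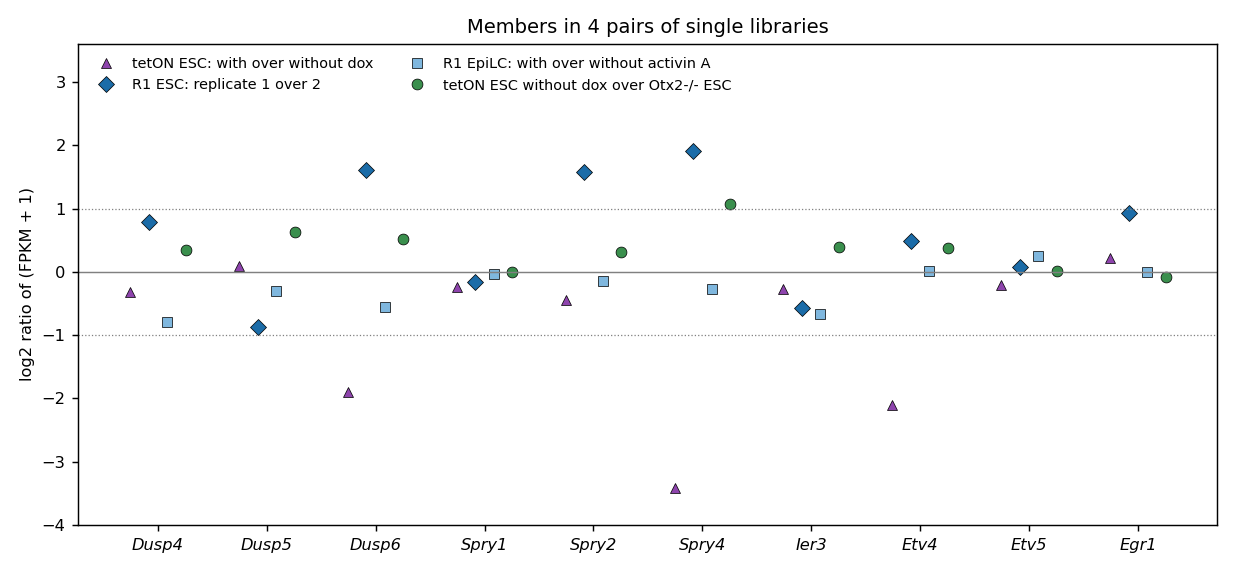
The vertical axis gives the log2 ratio of (FPKM + 1) in 4 pairs of single libraries for each gene, and dotted lines mark a log2 ratio of 1 in either direction. Triangles (with over without dox) are low for Spry4 (-3.42), Etv4 (-2.11) and Dusp6 (-1.91), diamonds (R1 ESC replicate 1 over 2) are high for Spry4 (1.92), Dusp6 (1.61) and Spry2 (1.58), and squares (with over without activin A) stay between the lines.

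The transgene line without dox was itself above Otx2-/- ESC for Spry4 (13.9 FPKM in tetON cells without dox, 6.05 FPKM in Otx2-/- ESC; log2 ratio 1.08), the 1 gene past the fold, with 0 lower, where 1.34% of genes were higher and 1.36% lower. Of the 10 genes 9 had ratios above 0 in this pair, the next being Dusp5 (0.63) and Dusp6 (0.53), and the median of all genes was 0.03. Spry1 (0.000197) and Etv5 (0.01) were hardly above 0 and lay below that median. After quantile scaling both were below 0 (-0.00326 and -0.05). The share of all genes with a ratio above 0 was not counted. Otx2 had 45.8 FPKM in the tetON cells without dox and 7.85 FPKM in Otx2-/- ESC, and its part was not tested.

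Activin A, a ligand of the Nodal pathway, was compared within R1 EpiLC, with 1 library each. No gene of the 10 passed the fold, where 1.07% of genes were higher and 1.07% lower. Values were lower with activin A for Dusp4 (10.5 FPKM with, 19.0 without; -0.80), Ier3 (63.8 with, 101 without; -0.66) and Dusp6 (30.1 with, 44.5 without; -0.55), and higher for Etv5 (210.2 with, 176 without; 0.26). Spry1 had 20.0 FPKM with activin A and 20.5 without (-0.03), and Etv4 24.3 with and 24.1 without (0.01).

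The R1 ESC replicates, grown under one description, differed more in these genes than the activin A pair did. Spry4 had 31.5 FPKM in replicate 1 and 7.60 in replicate 2 (1.92), Dusp6 28.6 and 8.66 (1.61), and Spry2 91.7 and 29.9 (1.58), so that 3 of the 10 genes were past the fold upward and 0 downward, where 6.09% of genes were higher and 5.42% lower in replicate 1. Those shares are 557 and 496 genes as deposited, against 332 and 551 after quantile scaling, under which the same 3 genes passed. Dusp5 (1.57 in replicate 1, 3.73 in replicate 2; -0.88) and Ier3 (7.09 and 11.0; -0.57) had lower values in replicate 1, and the median of all genes was 0.22. The immediate early list was high in the same library, with 7 of 13 genes past the fold upward, 0 downward and a median of 1.02. Myc (28.7 FPKM in replicate 1, 2.29 in replicate 2) and Ccnd1 (54.6 and 19.8), both targets of growth factor signalling and picked after their values were seen, were among them. Mesoderm markers summed to 13.1 FPKM in replicate 1, the highest of the ESC libraries, but they did not move together. Eomes (9.31 FPKM in replicate 1, 3.18 in replicate 2), T (2.61 and 0.600) and Mixl1 (0.315 and 0.111) were higher in replicate 1. Gsc (0.659 and 3.25), Tbx6 (0.223 and 0.325) and Mesp1 (listed at 0 and 0.0453) were lower. The part of these markers was not tested.

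The pathway around the 10 genes was followed with 5 lists of 93 genes, 92 of which matched a symbol. Their counts stand beside the 9.73% of all genes that rose and 10.6% that fell over R1 and E14, and several are near or below those shares. Among 14 FGF ligands, 8 had a mean of at least 1 FPKM over R1 and E14, 2 rose and 1 fell, with a median difference of 0.09. Fgf5, the ligand that marks the post-implantation epiblast, averaged 31.5 ± 3.83 FPKM in EpiLC and 0.655 ± 0.134 FPKM in ESC (SD, n = 3 each; difference 4.29, SE 0.15; limma, adjusted p = 0.000793). Fgf15 averaged 13.7 ± 6.84 FPKM in EpiLC and 2.02 ± 1.08 FPKM in ESC (2.21; limma, adjusted p = 0.0263), and Fgf10 0.128 ± 0.0179 FPKM in EpiLC and 2.73 ± 0.230 FPKM in ESC (-1.72; limma, adjusted p = 0.00453). Of 5 receptor genes 4 were tested and 0 passed (limma, lowest adjusted p = 0.0758, for Fgfr2), and 2 had an unadjusted p under 0.05, both higher in EpiLC. Fgfr1, the main receptor in these cells, averaged 18.6 ± 4.48 FPKM in EpiLC and 20.8 ± 4.47 FPKM in ESC (SD, n = 3 each).

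Between receptor and transcription, 30 of 32 cascade genes were tested, 1 rose and 3 fell, with a median difference of 0.01. Erf, an ETS repressor that ERK exports from the nucleus, fell to 9.63 ± 1.18 FPKM in EpiLC, against 47.2 ± 16.9 FPKM in ESC (SD, n = 3 each; -2.13; limma, adjusted p = 0.00330). Elk3 (-1.41) and the adaptor Grb2 (-0.77; 29.0 ± 1.03 FPKM in EpiLC, 50.5 ± 4.29 FPKM in ESC) fell as well (limma, adjusted p = 0.0244 and 0.0153). Braf passed the test of E14 against R1 (5.29, SE 0.28; limma, adjusted p = 0.0211), with 35.6 FPKM in E14 EpiLC and listed at 0 in both R1 EpiLC libraries, against 8.66 FPKM in E14 ESC and at most 9.62 FPKM in R1 ESC, and a listed 0 can be a failed estimate.

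Of 17 other feedback genes 14 were tested, 5 rose and 0 fell (limma; 1 was lower at an unadjusted p under 0.05), with a median difference of 0.39. Dusp9, an ERK phosphatase, had 202 ± 29.5 FPKM in EpiLC and 43.4 ± 27.7 FPKM in ESC (SD, n = 3 each; 2.50; limma, adjusted p = 0.0428). Dusp1 had 74.9 ± 13.2 FPKM in EpiLC and 25.5 ± 5.79 FPKM in ESC (1.53; limma, adjusted p = 0.00739). Pea15a (1.62), Errfi1, an inhibitor of EGF receptors (1.17), and Dusp7 (0.65), named after its value was seen, rose too (limma, adjusted p = 0.00390, 0.00554 and 0.0392). Of 25 immediate early and other genes 18 were tested, 3 rose and 4 fell, with a median of 0.16, Bcl2l11 (1.80), Ier5 (1.73) and Btg2 (1.49) rising and Hbegf (-1.98) falling most. Over the 10 libraries, where 12.5% of all genes rose and 15.7% fell, the counts were 4 higher and 2 lower of 8 ligands, 1 and 0 of 4 receptors, 4 and 5 of 30 cascade genes, 6 and 0 of 15 other feedback genes, and 4 and 3 of 17 immediate early genes.

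**Figure D4:**
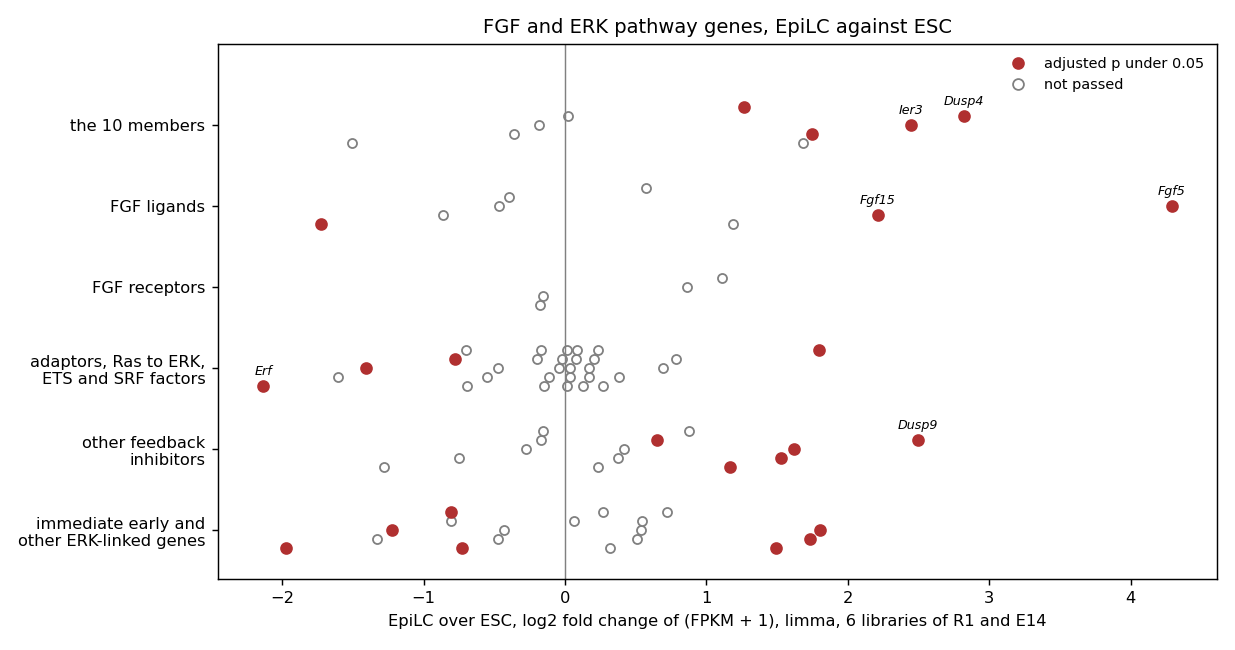
The horizontal axis gives the limma log2 difference EpiLC over ESC over 6 libraries of R1 and E14, 1 point per tested gene, with rows for the 10 ERK target and feedback genes (9 tested) and the 5 pathway lists, and filled points for an adjusted p under 0.05. Filled points to the right are Dusp4, Ier3, Spry1 and Dusp5 in the top row, and the other feedback row has 5 filled points to the right and 0 to the left.

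The 10 genes did not follow a single pattern over the libraries. Pearson's r of log2(FPKM + 1) over the 10 libraries, a description over points that share state and line, was 0.95 between Spry1 and Dusp4, 0.92 between Ier3 and Spry1 and 0.91 between Dusp6 and Dusp4. Etv4 and Spry4 had 0.94, and 0.85 without the dox library, whereas Spry4 and Dusp6 had 0.73, and 0.48 without it. Ier3 and Spry2 ran opposite to each other at -0.79. Among 8600 genes averaging at least 5 FPKM and no value of 0, the gene most like each was Tcf7 for Spry1 (0.992), Phf12 for Spry2 (0.990), Socs2 for Spry4 (0.985), Dapk1 for Dusp6 (0.984), Espn for Ier3 (0.984), 2810453I06Rik for Dusp4 (0.98) and Fabp5 for Dusp5 (0.977). For Egr1 it was 4933424B01Rik (0.972), for Etv4 Zfp462 (0.972) and for Etv5 Gstm1 (0.957). Socs2 and Mycn, singled out after their values were seen, were among the nearest 3 genes of both Spry4 and Etv4.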

How the data were processed

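RNA-seq of 10 libraries was used as deposited FPKM per gene, made by the authors with TopHat and Cufflinks on mm9, per the submitters' processing notes. Versions, annotation and settings were looked for and not given in the sources used here. Per the labels' protocols, poly(A) RNA was primed with random hexamers and read on an Illumina Genome Analyzer, with no strand marking described. A count model was not applied, since FPKM are no counts. Each table held 23112 entries, of which 17 exact repeats were dropped and 228 sharing a symbol were summed.

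Genes averaging at least 1 FPKM entered limma 3.58.1 (R 4.3.3, eBayes with a trend) as log2(FPKM + 1), tests being two-sided, with Benjamini-Hochberg adjustment over all genes tested and a threshold of 0.05, and a check on simulated data. A difference on this scale understates changes of genes with low FPKM. The fits were EpiLC against ESC over 6 libraries (R1, E14) and over all 10, with line as a term, and 8 libraries by group for Otx2-/- cells. The tetON line has ESC libraries alone, so with a line term it adds to the spread of the 10-library fit and nothing to its differences. Without that pair the SE was 0.60 in place of 0.84 for Spry4 and 0.21 in place of 0.43 for Etv4. For Dusp4 it was 0.37 in place of 0.35. The labels call the cultures biological replicates, and their p-values cover only how these few libraries vary, activin A included. Single pairs had the size rule and no p. Depth was approximated from the 25th percentile of values above 0 among 958 olfactory receptor entries, and is rough.

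Members and lists were chosen with earlier results of these data known. Named were all 10 genes, Otx2, up to 4 called genes per list by size of change (or the 2 most abundant), list genes passing an interaction, and the most alike gene per member. The result of 1 list gene that this rule names is not reported here. Alternatives were a pseudocount of 0.1, no filter, quantile and median-ratio scaling, no line term, left-out libraries and, for the pairs, the same scalings.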

Additional observations from a re-analysis of the deposited data

Results flagged for a closer look

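Both ETS factor genes differed in sign between lines. Etv4 had a difference between EpiLC and ESC of 0.16 in E14 and 0.64 in Otx2-/- on the log2(FPKM + 1) scale, whereas every pairing of an R1 EpiLC with an R1 ESC library was below 0 (38.5 FPKM in E14 EpiLC and 34.3 in E14 ESC, 35.9 in Otx2-/- EpiLC and 22.6 in Otx2-/- ESC, 24.1 and 24.3 in R1 EpiLC and 26.3 and 37.2 in R1 ESC). Etv5 had -0.36 in E14 and -0.40 in Otx2-/-, with every R1 pairing above 0. What drew attention was this opposite direction in single libraries. The tests of the difference itself did not pass. For E14 minus R1 they gave 0.52 for Etv4 and -0.57 for Etv5 (limma, adjusted p = 0.914 each), and for Otx2-/- minus the other lines 0.83 for Etv4 and -0.43 for Etv5 (limma, adjusted p = 0.997 each). The labels do not say if E14 or Otx2-/- EpiLC had activin A, so these libraries cannot be matched to those of R1 by activin A. Within R1, the EpiLC library with activin A had 210.2 FPKM of Etv5 and the one without 176, 1 library each. Etv4 had 24.3 FPKM with activin A and 24.1 FPKM without in the same libraries. The part of activin A in the opposite signs was not tested.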

How the results depend on the processing

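Among values of single genes under alternatives, 751 kept direction and side of the threshold, 5 passed newly, 18 no longer passed and 22 changed sign, and among counts of the 10 genes 169 stayed within 1.5 times and 9 did not. Over R1 and E14 the 10 genes gave 1 to 5 higher and 0 to 1 lower when each library was left out in turn, and among all genes 211 higher and 187 lower when R1 EpiLC without activin A was left out, 322 and 276 when that with activin A was, 441 and 332 without E14 EpiLC, 499 and 345 without E14 ESC, and 1890 and 2228 without R1 ESC replicate 1, against 1191 and 1293 with all 6 libraries. Over 10 libraries the lower count was 1 with no line term, 1 with the tetON pair and the first R1 ESC library left out (chosen after seeing the data), and 0 to 1 with single libraries left out, and among all genes 1546 rose and 1934 fell, against 850 and 1002 when R1 EpiLC without activin A was left out, 953 and 1136 when that with activin A was, 853 and 974 without E14 EpiLC, 895 and 972 without E14 ESC, and 2535 and 3052 with the tetON pair and the first R1 ESC library left out. The count higher within Otx2-/- was 0 to 1. No filter on low values took the call from Dusp5 over R1 and E14 (limma, adjusted p = 0.0539) and from Dusp6 over 10 libraries (limma, adjusted p = 0.0584). The cause of these changes was not tested. The single libraries left out were all of R1 or E14. The 10-library fit was not repeated without an Otx2-/- library, though the fit over R1 and E14 holds none. Signs also changed. Over 10 libraries Etv5 was 0.11 after quantile scaling, and leaving out libraries gave -0.20 to 0.00717 for Etv5, -0.0242 to 0.19 for Etv4 and -0.25 to 0.69 for Spry4. Over R1 and E14 it gave -0.11 to 0.21 for Etv5, -0.36 to 0.00305 for Etv4 and -1.07 to 0.39 for Spry4. For the Otx2-/- step against the others it gave -0.418 to 0.50 for Dusp4, -0.60 to 0.36 for Ier3 and -0.00701 to 0.0759 for Spry1, and for Otx2-/- EpiLC against EpiLC -0.92 to 0.00293 for Dusp4 and -0.24 to 0.40 for Dusp6. The 3 genes low with dox passed the fold under every pseudocount and scaling tried, as did the 3 high in R1 ESC replicate 1 and Spry4 in tetON cells without dox. No paired analysis by replicate number was possible because the labels number replicates in R1 ESC alone; states were compared within lines instead, by a line term and by differences within R1, E14 and Otx2-/-. The E14 against R1 interaction could not be fitted without an E14 library. Few fragments limit Egr1 everywhere and Spry4 with dox.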

Other observations

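In Otx2-/- cells part of the surrounding pathway also passed between the states, where 1.73% of all genes rose and 1.73% fell. Otx2-/- EpiLC had higher Bcl2l11, a pro-apoptotic ERK-linked gene (2.06), Fgf5 (2.09), Pea15a (1.58) and Errfi1 (1.56) than Otx2-/- ESC, and lower Hbegf (-2.56) and Fgf10 (-1.77), with limma adjusted p-values between 0.0156 and 0.0447. Fgf5 was also the only list gene that passed between Otx2-/- EpiLC and EpiLC of R1 and E14, where 0.163% of all genes did. It had 5.18 FPKM in Otx2-/- EpiLC and 31.5 ± 3.83 FPKM in EpiLC of R1 and E14 (SD, n = 3; difference -2.39, SE 0.20; limma, adjusted p = 0.0117). None of the 9 tested ERK target and feedback genes passed, which at so low a share does not set them apart from other genes.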
